A study of Homo sapiens with 18 samples.

Results

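The enzalutamide response of cells carrying the first guide RNA against OGDHL was set against the response of cells carrying the control guide, in 12 of the 18 RNA sequencing libraries of the series. The cells were 16D, an established castration-resistant prostate cancer line of the LNCaP lineage, given Cas9 and 1 guide RNA by lentivirus and then kept for 6 weeks in the drug or in its solvent. The groups, with 3 libraries each, were guide 1 cells in 10 µM enzalutamide (sgOGDHL_1_Enza), guide 1 cells in DMSO vehicle (sgOGDHL_1_DMSO), control guide cells in 10 µM enzalutamide (sgAAVS Enza) and control guide cells in DMSO (sgAAVS DMSO). All 4 groups therefore carried Cas9 and a guide, and the control guide names AAVS, a safe-harbour site within PPP1R12C. The labels do not say whether the infected cells were a pool or 1 clone, nor that the 3 libraries of a group came from separate cultures, so every p-value measures only the spread between these libraries, which may be technical.

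For each gene the interaction is the change with enzalutamide in guide 1 cells less the change with enzalutamide in control cells, on log2(TPM + 1). A positive interaction means that the drug lowered the gene less, or raised it more, in guide 1 cells. Values are TPM, each transcript's length-corrected share of its library, rescaled to the same total after removal of unnamed and mitochondrially encoded genes, a scale on which sequencing depth is unknown and the change of low genes is understated. Of 26863 named genes, 15268 reached 1 TPM in at least 3 of the 12 libraries and were tested with limma, and those with a Benjamini-Hochberg adjusted p under 0.05 over all tested genes are called.

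The androgen receptor is a nuclear receptor that, once bound by androgen, enters the nucleus and switches on genes of prostate secretion, lipid synthesis and growth while holding others down. Enzalutamide occupies its ligand pocket and blocks that step, and tumours under such drugs may regain androgen signalling, use the related glucocorticoid receptor or lose their prostate identity. OGDHL encodes a relative of OGDH, the subunit of the mitochondrial complex that consumes 2-oxoglutarate, which is also the co-substrate of demethylases and hydroxylases of chromatin and of the oxygen response.

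The targeted gene, OGDHL (chromosome 10, 49734641 to 49762379, GRCh38), had 3.07, 3.27 and 2.79 TPM in guide 1 cells in enzalutamide, 2.30, 2.71 and 3.75 TPM in guide 1 cells in vehicle, 9.20, 9.81 and 9.23 TPM in control cells in enzalutamide and 5.61, 5.73 and 5.50 TPM in control cells in vehicle. Every guide 1 library lay below every control library, and OGDHL rose with the drug in control cells (0.66 ± 0.11, adjusted p = 6.8e-04) but did not pass in guide 1 cells (0.06 ± 0.11, adjusted p = 0.69). Its interaction was -0.60 ± 0.15 (limma adjusted p = 0.021), and it did not pass with mitochondrial genes kept or without control vehicle replicate 3, control enzalutamide replicate 2 or guide 1 enzalutamide replicate 3. A transcript level does not measure cutting of the gene. OGDH itself had an interaction of 0.15 ± 0.11 and was not called (adjusted p = 0.33).

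One group of libraries stood apart. Mitochondrially encoded genes took 73.8%, 69.9% and 57.2% of the TPM in guide 1 vehicle replicates 1, 2 and 3, against 50.3% to 60.4% in the other 9 libraries. Pearson's r across genes between replicates was 0.975 to 0.991 within guide 1 vehicle and 0.994 to 0.996 within the other groups. Results are therefore also given with guide 1 vehicle replicate 3 alone, a setting chosen after seeing the data in which the lone library takes its spread from the other groups. Of 7 luminal prostate markers 6 were at 1 TPM or more in every library, and together they summed to 4475 to 4797 TPM in guide 1 cells in enzalutamide, 2852 to 3347 TPM in guide 1 cells in vehicle, 2171 to 2265 TPM in control cells in enzalutamide and 3026 to 3078 TPM in control cells in vehicle, while the basal markers KRT5, KRT14 and TP63 together stayed at or under 0.717 TPM, leukocyte markers at or under 0.442 TPM and endothelial markers at or under 0.776 TPM. Fibroblast markers were not near 0. Those 6 markers together summed to 10.4 to 20.9 TPM, and 1 of them was at 1 TPM or more in every library. KLK3, a luminal marker described below, averaged 2477 TPM in guide 1 cells in enzalutamide and 1106 TPM in guide 1 cells in vehicle. In control cells it averaged 163 TPM in enzalutamide and 991 TPM in vehicle. The luminal sums move with KLK3 and are not read as a separate measure of luminal identity. In bulk RNA, fewer cells expressing a gene and less of its RNA per cell cannot be told apart.

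The drug response of guide 1 cells differed from that of control cells at 3548 of 15268 genes, which is 23.2% of the genes tested. The interaction was positive at 1422 genes (9.31%) and negative at 2126 (13.9%), and it reached 1 on the log2 scale at 121 and 147 of them. Positive and negative counts of the gene lists below are to be read beside these shares. With median-of-ratios scaling the split was 1930 positive and 1756 negative, and with mitochondrial genes kept in the total it was 201 and 95, where the median interaction of all genes was 0.30 in place of -0.02. Each of the 12 leave-one-library fits called between 2447 and 7480 genes, the highest without guide 1 vehicle replicate 3, and with that replicate alone 4473 were called. With mitochondrial genes kept 85 of the 136 called genes that were chosen for description and could be tested there lost their call, while KLK3, KLK2, TMPRSS2, FKBP5, SLC45A3, IGFBP3, NTS, SYT4 and ID2 kept theirs and NR3C1 was too low to be tested. Of the 3548 genes, 2901 were tested with mitochondrial genes kept. There 2349 kept the sign of their interaction, 286 kept their call and 0 were called with the opposite sign. In the other settings given here, all of the 3548 that were tested kept their sign.

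Guide 1 cells differed from control cells at 2146 genes higher (14.1%) and 2127 lower (13.9%) in enzalutamide, 28.0% in all, and at 555 higher (3.64%) and 89 lower (0.583%) in vehicle, 4.22% in all. After median-of-ratios scaling 116 were higher and 80 lower in vehicle, against 25 and 4510 with mitochondrial genes kept, a setting that gave 177 higher and 358 lower in enzalutamide. Of the genes with a called interaction, 2354 (66.3%) had a called guide difference in enzalutamide and none in vehicle, 229 (6.45%) in vehicle and not in enzalutamide, 190 (5.36%) in both and 775 (21.8%) in neither. The vehicle comparison was the least stable count, from 13 to 9088 genes when 1 library was left out and 6 genes with guide 1 vehicle replicate 3 alone. Without that replicate the shares were 21.7% in enzalutamide and not in vehicle and 48.4% in vehicle and not in enzalutamide, and with it alone 93.0% and 0%.

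Enzalutamide itself changed 3251 genes upward (21.3%) and 2804 downward (18.4%) in guide 1 cells, 39.7% in all, against 3917 upward (25.7%) and 2992 downward (19.6%) in control cells, 45.3% in all. With median-of-ratios scaling the control split was 3283 and 3816, and with mitochondrial genes kept the splits were 1646 and 302 in guide 1 cells and 818 and 995 in control cells. The drug response was lost at 1354 genes (called in control cells alone, 799 rising and 555 falling there) and blunted at 952 (called in both with the same sign and smaller in guide 1 cells, 624 rising and 328 falling). It was reversed at 306 genes, of which 166 rose and 140 fell in control cells, and gained at 687 (called in guide 1 cells alone, 312 rising and 375 falling). At 178 genes it was enhanced, the same in sign and larger in guide 1 cells. Without guide 1 vehicle replicate 3 there were 1832 lost, 1243 blunted, 1184 reversed, 2391 gained and 676 enhanced genes, and with array weights, which weight each library by its spread, 1737 were lost and 2521 gained. These classes partly follow from which single tests passed, so sizes are given too. Among the 790 genes whose called control response was at least 1 on the log2 scale, the guide 1 response was a median 0.591 of it (0.540 for 419 rising genes and 0.660 for 371 falling genes). Choosing genes by 1 of the 2 responses by itself favours a smaller value in the other. For the 466 genes with a guide 1 response of that size the control response was a median 1.03 of the guide 1 response. That median was 1.10 for 230 rising genes and 0.980 for 236 falling genes. Among falling genes chosen this way the control response was thus not the larger at the median. With guide 1 vehicle replicate 3 alone, and genes chosen by the control response, the guide 1 response was a median 0.585 of it.

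**Figure D1:**
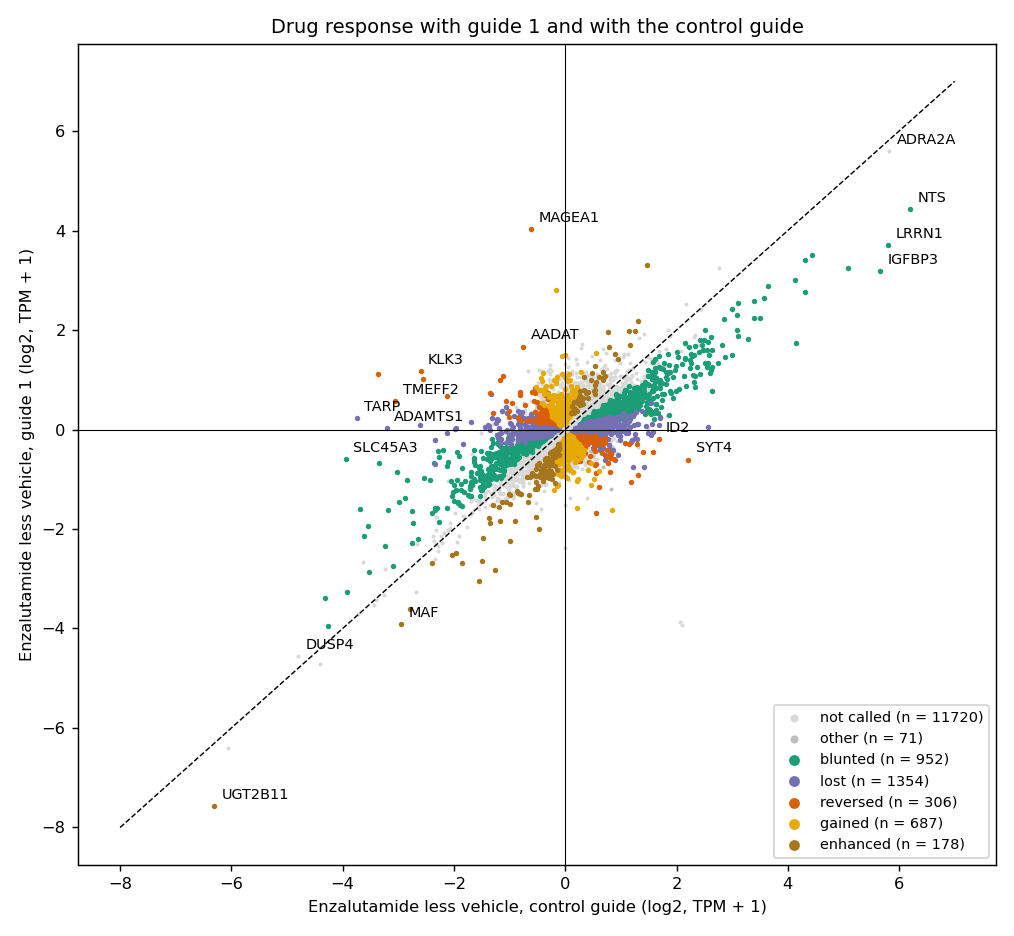
Change with enzalutamide on log2(TPM + 1) in guide 1 cells (vertical axis) against control cells (horizontal axis) for 15268 genes, coloured by response class; the dashed line marks equal responses. Blunted genes lie between the horizontal axis and the dashed line, lost genes along the horizontal axis, and reversed genes such as KLK3 and SYT4 across it.

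Androgen-responsive genes, which the drug lowered in control cells, kept more of their expression in guide 1 cells. Of 32 such genes, 4 rose and 21 fell with enzalutamide in guide 1 cells, against 0 that rose and 29 that fell in control cells. The interaction was positive at 21 and negative at 2 of the 32, with a median of 0.69 beside -0.02 for all genes. By class, 14 were blunted, 4 lost, 3 reversed and 2 enhanced. With guide 1 vehicle replicate 3 alone 22 were positive and 2 negative, and with mitochondrial genes kept 15 were positive and 0 negative.

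KLK3, which encodes prostate-specific antigen, carried one of the largest reversals. Its level was 2575, 2487 and 2368 TPM in guide 1 cells in enzalutamide, 979, 1089.6 and 1249.9 TPM in guide 1 cells in vehicle, 164, 168 and 157 TPM in control cells in enzalutamide and 964, 1004 and 1004 TPM in control cells in vehicle. The vehicle groups overlapped, while in the drug every guide 1 library was more than every vehicle library and every control library was less. KLK3 changed by 1.17 ± 0.077 with enzalutamide in guide 1 cells and by -2.60 ± 0.077 in control cells (log2 ± SE), an interaction of 3.76 ± 0.11 (limma adjusted p = 2.2e-08). Its promoter is shown because the receptor is known to bind there, with the AGAACA core of androgen response elements in capitals:
KLK3, 250 bases before the start, chr19:50854665-50854914, plus strand, RefSeq GRCh38.p14: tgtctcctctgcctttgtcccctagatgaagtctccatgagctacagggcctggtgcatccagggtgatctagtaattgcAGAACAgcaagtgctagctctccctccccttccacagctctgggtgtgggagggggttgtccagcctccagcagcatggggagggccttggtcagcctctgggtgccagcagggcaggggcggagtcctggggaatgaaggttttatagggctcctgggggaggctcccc
The motif began at position -170 from the transcription start. AGAACA was sought on both strands and lay in the same window of 6.79% of the 7362 tested genes with a promoter sequence, and in 1 of the 14 androgen-responsive genes with one, so these letters alone do not set the group apart.

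Other androgen-responsive genes were lost or blunted to differing degrees. SLC45A3, which encodes the prostate membrane protein prostein, had 71.6, 68.7 and 63.2 TPM in guide 1 cells in enzalutamide and 81.1, 105 and 127 TPM in vehicle, against 7.72, 6.81 and 6.40 TPM in control cells in enzalutamide and 121, 119 and 123 TPM in vehicle. In control cells the drug libraries lay far below the vehicle libraries, and in guide 1 cells the gap was small, an interaction of 3.34 ± 0.19 (adjusted p = 2.3e-06).

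TMPRSS2, the protease gene whose promoter is often fused to ERG in prostate cancer, had 27.3, 26.8 and 24.0 TPM in guide 1 cells in enzalutamide and 26.5, 28.6 and 29.3 TPM in vehicle, against 12.8, 12.2 and 11.8 TPM in control cells in enzalutamide and 26.0, 26.0 and 24.8 TPM in vehicle. Its fall with the drug was thus seen in control cells (adjusted p = 2.4e-07) and did not pass in guide 1 cells (-0.11 ± 0.057, adjusted p = 0.15), and the interaction was 0.89 ± 0.081 (limma adjusted p = 5.2e-05). The kallikrein gene KLK2 was blunted, changing by -0.54 ± 0.085 in guide 1 cells and -1.91 ± 0.085 in control cells. FKBP5, an immunophilin that binds steroid receptor complexes, was blunted less, with -1.13 ± 0.047 in guide 1 cells and -1.71 ± 0.047 in control cells. ELL2, an elongation factor, and ELOVL7, a fatty acid elongase, had interactions of 1.41 ± 0.15 and 2.10 ± 0.11, and the transporter gene ABCC4 one of 1.40 ± 0.07.

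Apart from the 21 of 32 androgen-responsive genes with a positive interaction, 2 had a negative one and the rest had no called interaction. The transcription factor gene MAF changed by -3.92 ± 0.072 in guide 1 cells and -2.95 ± 0.072 in control cells, so its fall was enhanced (interaction -0.97 ± 0.10, limma adjusted p = 1.4e-04). The cation channel gene TRPM8 was the other enhanced member, with an interaction of -0.29 ± 0.057. NDRG1, a stress and differentiation gene, changed by -2.45 ± 0.12 in guide 1 cells and -2.29 ± 0.12 in control cells, and STEAP4, a metalloreductase gene, by -1.87 ± 0.079 and -2.08 ± 0.079, neither with a called interaction (adjusted p = 0.54 and 0.21). Interactions were therefore uneven within the list.

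Most called targets of the glucocorticoid receptor fell in control cells and fell less, or did not pass, in guide 1 cells. NR3C1, which encodes the glucocorticoid receptor, had 0.262, 0.284 and 0.299 TPM in guide 1 cells in enzalutamide, against 2.18, 2.03 and 2.33 TPM in control cells in enzalutamide, and was under 0.02 TPM in every vehicle library. It reached 1 TPM in the control enzalutamide libraries alone and passed the filter on low values through them, so its interaction of -1.32 ± 0.068 is a description and no test of it is given. Of the 11 tested glucocorticoid receptor genes (NR3C1 and its targets), 7 had a positive and 2 a negative interaction. NR3C1 is 1 of those 2, and for the reason just given its call is not read as a test. ZBTB16, a zinc finger repressor, had 1.22 ± 0.061 and CEBPD, a leucine zipper factor, 1.00 ± 0.097. Several genes of this list also answer to androgen.

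**Figure D2:**
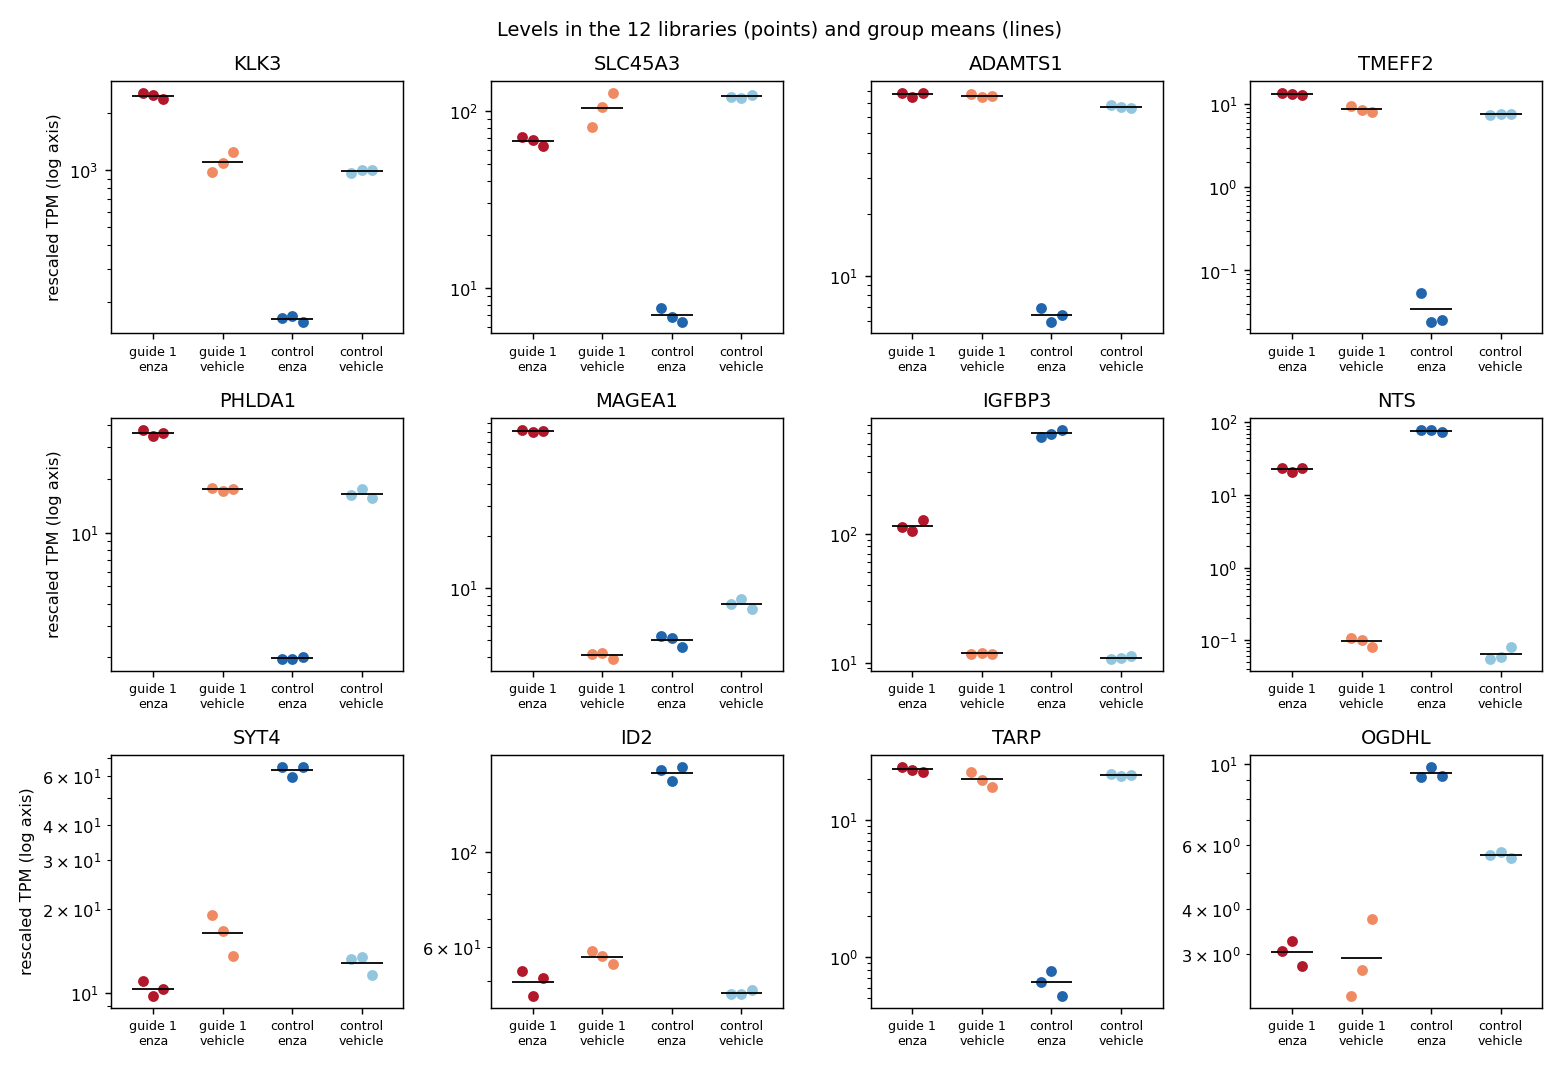
Rescaled TPM (log axis) of 12 genes in guide 1 cells in enzalutamide, guide 1 cells in vehicle, control cells in enzalutamide and control cells in vehicle; each point is 1 library and each line the mean of 3. KLK3, ADAMTS1, TMEFF2, PHLDA1 and TARP are low in the control enzalutamide libraries alone, and SYT4 and ID2 are high there alone.

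Beyond the androgen list, several genes that fell steeply in control cells rose or did not pass in guide 1 cells. TMEFF2, a transmembrane protein gene of prostate and brain, had 13.8, 13.2 and 12.8 TPM in guide 1 cells in enzalutamide and 9.39, 8.47 and 8.10 TPM in vehicle, against 0.0532, 0.0240 and 0.0252 TPM in control cells in enzalutamide and 7.51, 7.68 and 7.52 TPM in vehicle. The drug took it to near 0 in control cells and to its highest level in guide 1 cells, an interaction of 3.62 ± 0.071 (limma adjusted p = 1.4e-09). PHLDA1, a pleckstrin homology domain gene used as a MAP kinase readout, had 37.8, 34.9 and 36.3 TPM in guide 1 cells in enzalutamide and 17.7, 17.2 and 17.5 TPM in vehicle, against 1.95, 1.97 and 2.02 TPM in control cells in enzalutamide and 16.3, 17.6 and 15.7 TPM in vehicle. It too was reversed, with 1.01 ± 0.045 in guide 1 cells and -2.56 ± 0.045 in control cells. 

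ADAMTS1, an extracellular protease gene, showed a response that was lost outright. It had 78.9, 75.4 and 78.7 TPM in guide 1 cells in enzalutamide and 77.5, 75.5 and 75.6 TPM in vehicle, against 6.97, 5.93 and 6.43 TPM in control cells in enzalutamide and 68.7, 66.7 and 66.6 TPM in vehicle. The guide 1 libraries overlapped across the drug (0.03 ± 0.049, adjusted p = 0.69), and the interaction was 3.23 ± 0.07 (limma adjusted p = 2.7e-09). The prostaglandin receptor gene PTGFR (2.69 ± 0.11), the guanylate cyclase subunit gene GUCY1A1 (2.13 ± 0.11) and the luminal keratin gene KRT19 (1.99 ± 0.16) were also classed as lost. GUCY1A1 was so only narrowly, since it fell by -0.21 ± 0.077 in guide 1 cells (limma adjusted p = 0.0507). TARP (3.98 ± 0.12) was a narrow case too, with a rise of 0.24 ± 0.085 in guide 1 cells (limma adjusted p = 0.0504). It lies in the T-cell receptor gamma locus, where reads may be shared with overlapping genes. TNFRSF19, a receptor of the tumour necrosis factor family, was blunted, with a mean of 15.1 ± 0.622 TPM in guide 1 cells in enzalutamide and 1.25 ± 0.0840 TPM in control cells in enzalutamide (SD, n = 3 each).

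MAGEA1 gave the largest reversal among the genes described here. This cancer-testis antigen gene on chromosome X had 82.9, 80.3 and 81.0 TPM in guide 1 cells in enzalutamide and 4.12, 4.20 and 3.87 TPM in vehicle, against 5.27, 5.12 and 4.53 TPM in control cells in enzalutamide and 8.12, 8.59 and 7.59 TPM in vehicle. The guide 1 enzalutamide libraries were far above all the others, which stayed within single digits, and the interaction was 4.63 ± 0.08 (limma adjusted p = 8.8e-10). MAGEA genes resemble each other closely, so the split of reads among them is uncertain. The long non-coding RNA gene LINC00161 had 65.6, 58.3 and 66.4 TPM in guide 1 cells in enzalutamide and 32.4, 28.3 and 26.2 TPM in vehicle, against 1.59, 1.23 and 1.07 TPM in control cells in enzalutamide and 22.2, 22.1 and 23.7 TPM in vehicle, an interaction of 4.48 ± 0.14 (limma adjusted p = 3.0e-08). 

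Several genes that rose with the drug in control cells rose less in guide 1 cells. IGFBP3, which encodes a secreted binding protein of insulin-like growth factors, had 113, 104 and 127 TPM in guide 1 cells in enzalutamide and 11.6, 11.9 and 11.7 TPM in vehicle, against 566, 593 and 641 TPM in control cells in enzalutamide and 10.6, 10.8 and 11.3 TPM in vehicle. Drug and vehicle did not overlap in either line, but the rise was 3.18 ± 0.069 in guide 1 cells and 5.66 ± 0.069 in control cells (interaction -2.48 ± 0.097, limma adjusted p = 2.3e-07). NTS, which encodes the neuropeptide neurotensin, had 23.6, 20.8 and 23.8 TPM in guide 1 cells in enzalutamide, against 77.3, 79.3 and 74.6 TPM in control cells in enzalutamide, and at most 0.106 TPM in any vehicle library. Its interaction was -1.76 ± 0.072 (adjusted p = 2.5e-07).

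Further genes with a blunted rise were of several kinds. LRRN1, a neuronal leucine-rich repeat protein gene, averaged 63.8 ± 1.76 TPM in guide 1 cells and 213 ± 8.69 TPM in control cells in enzalutamide (interaction -2.10 ± 0.097). The pseudokinase gene TRIB2 averaged 19.4 ± 0.495 and 71.6 ± 3.42 TPM (-1.82 ± 0.073), and the neuropeptide gene ADCYAP1 2.42 ± 0.132 and 16.9 ± 0.632 TPM (-2.39 ± 0.066), again in guide 1 and then control cells in enzalutamide (SD, n = 3 each). IGFBP5, another binding protein of these growth factors, had an interaction of -1.29 ± 0.098. All of these responses were in the same direction in both lines.

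Of 14 androgen-repressed genes 1 had a positive and 8 a negative interaction, with a median of -0.68. With mitochondrial genes kept 1 was positive and 4 negative. The list did not rise as a whole with the drug. In control cells 6 rose and 7 fell (median -0.22), and in guide 1 cells 7 rose and 6 fell (median 0.15). LRRN1 and NTS belong to this list, as do CAMK2N1, an inhibitor of calmodulin-dependent kinase (-1.45 ± 0.16), the opioid receptor gene OPRK1 (-1.43 ± 0.068), the stress gene SESN1 (-0.91 ± 0.054) and DDC, a decarboxylase of monoamine synthesis (-0.56 ± 0.057). Those 6 rose with the drug in both lines and rose less in guide 1 cells. The other called members do not follow the list's name: UGT2B11 and UGT2B15, glucuronidation enzymes that inactivate androgens, fell with the drug and fell further in guide 1 cells (-1.27 ± 0.16 and -0.81 ± 0.06), although UGT2B genes are near-identical and the calls rest on how reads were split. ST7 was the positive one (0.58 ± 0.045).

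The called neuroendocrine markers rose less with the drug in guide 1 cells, or fell. Of 18 neuroendocrine markers 6 were tested, and 0 had a positive and 4 a negative interaction, with a median of -0.71. With guide 1 vehicle replicate 3 alone the counts were again 0 and 4 and the median -1.26. NTS and DDC are shared with the list above, SYT4 is described next, and the neuronal enolase gene ENO2 rose by 1.55 ± 0.15 in guide 1 cells and 2.41 ± 0.15 in control cells. CHGA, SYP and INSM1, defining markers of a neuroendocrine state, summed to 1.67 to 1.92 TPM in guide 1 cells in enzalutamide and 1.91 to 2.25 TPM in control cells in enzalutamide, so these ranges met. SOX9, a transcription factor of progenitor cells, averaged 76.9 ± 2.95 TPM in guide 1 cells and 169 ± 7.43 TPM in control cells in enzalutamide (-1.09 ± 0.12), and the Notch target HES1 had an interaction of -0.72 ± 0.08. Of 21 tested lineage plasticity regulators 1 was positive and 5 negative, beside 9.31% and 13.9% over all genes. Without guide 1 vehicle replicate 3 the counts were 5 and 7.

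SYT4 and ID2 were reversed in the direction opposite to KLK3. SYT4, a synaptotagmin of vesicle release, had 11.1, 9.75 and 10.4 TPM in guide 1 cells in enzalutamide and 19.1, 16.7 and 13.6 TPM in vehicle, against 64.6, 59.4 and 64.9 TPM in control cells in enzalutamide and 13.3, 13.5 and 11.6 TPM in vehicle. The drug raised it in control cells without overlap and lowered it in guide 1 cells, an interaction of -2.82 ± 0.15 (limma adjusted p = 1.4e-06). ID2, an inhibitor of helix-loop-helix transcription factors, had 52.8, 46.1 and 50.8 TPM in guide 1 cells in enzalutamide and 58.9, 57.3 and 54.8 TPM in vehicle, against 155, 146 and 158 TPM in control cells in enzalutamide and 46.8, 46.7 and 47.6 TPM in vehicle (-1.87 ± 0.076). Its relatives ID1 and ID3 rose in both lines and had no called interaction (0.36 ± 0.15, adjusted p = 0.11, and 0.51 ± 0.29, adjusted p = 0.22).

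FN1, which encodes the matrix protein fibronectin, was likewise higher with the drug in control cells and lower in guide 1 cells (-1.28 ± 0.089). TCEAL9, an X-linked gene of a transcription elongation factor-like family, averaged 59.7 ± 3.80 TPM in guide 1 cells and 224 ± 9.84 TPM in control cells in enzalutamide (-2.22 ± 0.19), and ANKRD65 1.77 ± 0.221 and 8.61 ± 0.332 TPM (-2.03 ± 0.12). The interactions of SYT4 and TCEAL9 were -2.58 and -1.87 with guide 1 vehicle replicate 3 alone, both still called.

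Of 13 tested antigen presentation genes, which carry peptides to T cells, 6 rose and 1 fell in guide 1 cells, against 9 that rose and 2 that fell in control cells, and the interaction was positive at 0 and negative at 6 (median -0.27). HLA-B, a class I heavy chain gene, averaged 25.8 ± 1.47 TPM in guide 1 cells and 44.6 ± 2.20 TPM in control cells in enzalutamide (-0.77 ± 0.12, limma adjusted p = 0.0014), although class I genes are alike in sequence. TAPBP, which encodes the loading chaperone tapasin, was lost (-0.58 ± 0.063). When guide 1 vehicle replicate 3 was used alone 2 rose and 3 fell in guide 1 cells, without it the interaction was positive at 3 and negative at 7, and with mitochondrial genes kept 0 were called either way. Of 19 tested interferon response genes 4 were positive and 4 negative, so no direction is given for the list. The negative ones included IFIT1 (-0.73 ± 0.10) and IFIT2 (-0.50 ± 0.092), RNA sensors of the antiviral response. Without guide 1 vehicle replicate 3 the counts were 4 and 7, and with mitochondrial genes kept 0 and 0. 

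Of 27 p53 targets 2 had a positive and 10 a negative interaction, with a median of -0.05. Without guide 1 vehicle replicate 3 these counts were 8 and 10, and with mitochondrial genes kept 0 and 0, with a median of 0.23. BTG2, an antiproliferative gene, averaged 173 ± 6.58 TPM in guide 1 cells and 367 ± 8.22 TPM in control cells in enzalutamide (-1.14 ± 0.062, limma adjusted p = 1.7e-06), and PLK2, a stress-induced kinase gene, had -0.64 ± 0.055. SESN1 is shared with the androgen-repressed list. CDKN1A and MDM2, the best known targets, were not called (-0.41 ± 0.16 and -0.16 ± 0.11, adjusted p = 0.094 and 0.31). Among 16 MAP kinase feedback genes 2 were positive, PHLDA1 and the receptor kinase inhibitor SPRY1 (0.98 ± 0.12). There were 6 negative ones, among them the phosphatase gene DUSP6 (-0.68 ± 0.14) and SPRY4 (-0.81 ± 0.092). With mitochondrial genes kept 2 were positive and 1 negative, and DUSP6 lost its call.

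Most DNA replication genes rose with the drug in guide 1 cells and mostly fell or did not pass in control cells. Of 35, 23 rose and 0 fell with enzalutamide in guide 1 cells, against 2 that rose and 18 that fell in control cells. The interaction was positive at 25 and negative at 0, with a median of 0.48, and by class 10 were reversed, 10 gained, 4 lost and 1 enhanced. The guide 1 vehicle libraries were uneven here, since, relative to the control vehicle mean, the median level of the list was 0.16, 0.14 and 0.15 in guide 1 cells in enzalutamide, -0.15, -0.09 and -0.01 in guide 1 vehicle replicates 1, 2 and 3, and -0.16, -0.21 and -0.18 in control cells in enzalutamide (log2). With guide 1 vehicle replicate 3 alone 28 were positive and 1 negative, and 18 rose and 4 fell with the drug in guide 1 cells. With mitochondrial genes kept 2 were positive, with a median of 0.72 where that of all genes was 0.30.

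FEN1, which encodes the flap endonuclease of lagging strand synthesis, had 289.7, 289 and 285 TPM in guide 1 cells in enzalutamide and 185, 204 and 232 TPM in vehicle, against 195, 189.9 and 191 TPM in control cells in enzalutamide and 235, 226 and 239 TPM in vehicle. In each line the drug and vehicle libraries did not overlap, with guide 1 cells higher in the drug and control cells lower in it, although guide 1 vehicle replicate 1 was itself below the control enzalutamide libraries. The interaction was 0.76 ± 0.097 (limma adjusted p = 4.7e-04). The helicase subunit gene MCM7 (0.69 ± 0.13) and the replisome gene GINS4 (0.65 ± 0.073) were reversed too. TYMS, the thymidylate synthase gene, was gained (0.55 ± 0.073), with 0.44 ± 0.052 in guide 1 cells and -0.12 ± 0.052 in control cells (adjusted p = 0.092).

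E2F1, a transcription factor that drives S-phase genes, had 65.3, 65.1 and 63.1 TPM in guide 1 cells in enzalutamide and 30.9, 38.8 and 52.4 TPM in vehicle, against 48.3, 47.2 and 46.4 TPM in control cells in enzalutamide and 51.3, 51.1 and 52.5 TPM in vehicle. The drug libraries of guide 1 were above all others, while guide 1 vehicle ran from well below the control libraries to level with them. The interaction was 0.81 ± 0.20 (limma adjusted p = 0.017), and 0.42 with guide 1 vehicle replicate 3 alone. E2F factors bind TTTGGCGC or TTTCGCGC, and E2F1 carries such a site in its own promoter, which is shown with the motif in capitals:
E2F1, 250 bases before the start, chr20:33686386-33686635, minus strand, RefSeq GRCh38.p14: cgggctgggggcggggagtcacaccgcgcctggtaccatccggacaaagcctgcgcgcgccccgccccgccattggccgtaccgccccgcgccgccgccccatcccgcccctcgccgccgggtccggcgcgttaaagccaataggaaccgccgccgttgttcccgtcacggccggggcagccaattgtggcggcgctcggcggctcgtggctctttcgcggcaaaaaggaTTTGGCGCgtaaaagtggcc
The motif began at position -20. Sought on both strands, these letters, which do not overlap AGAACA, lay in 1.86% of the 7362 tested genes with a promoter sequence and in 5 of the 23 DNA replication genes with one (21.7%): MCM6, POLA1, POLA2, POLE and E2F1. Of those 5, POLA2 (0.54 ± 0.089) and E2F1 had called interactions, while MCM6 (-0.08 ± 0.053), POLA1 (0.04 ± 0.066) and POLE (0.28 ± 0.11) did not. A match describes the sequence and is not evidence of binding.

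Of 30 mitosis genes, 3 rose and 3 fell with the drug in guide 1 cells, against 1 that rose and 20 that fell in control cells, with 14 positive and 0 negative interactions and a median of 0.24. The cyclin gene CCNB2 averaged 36.7 ± 0.917 TPM in guide 1 cells and 25.8 ± 0.622 TPM in control cells in enzalutamide (0.50 ± 0.049), and the centromeric histone gene CENPA had 0.53 ± 0.062 and the kinase gene AURKB 0.76 ± 0.16. With guide 1 vehicle replicate 3 alone 22 were positive and 0 negative, and 8 rose and 2 fell with the drug in guide 1 cells. Without that replicate 14 were positive and 0 negative, and 5 rose and 13 fell in guide 1 cells. Keeping mitochondrial genes left 1 positive and 0 negative. The proliferation marker MKI67 was not called (-0.14 ± 0.16, adjusted p = 0.54).

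With all 12 libraries the called interactions of nucleotide and amino acid metabolism genes were nearly all positive. For purine and pyrimidine synthesis 13 of 27 were positive and 0 negative (median 0.30), with lost falls at CTPS1, the CTP synthase gene (0.48 ± 0.064), and NME1, a nucleotide kinase gene (0.46 ± 0.067). For targets of ATF4, the factor of the amino acid stress response, 13 of 34 were positive and 1 negative (median 0.30). ASNS, the asparagine synthetase gene, averaged 78.1 ± 0.354 TPM in guide 1 cells in enzalutamide and 62.5 ± 5.73 TPM in vehicle, against 53.3 ± 1.59 and 68.5 ± 1.28 TPM in control cells in enzalutamide and in vehicle (0.68 ± 0.081, limma adjusted p = 3.1e-04). SLC7A5, an amino acid transporter gene, was lost (0.98 ± 0.16). With guide 1 vehicle replicate 3 alone the median interactions were 0.11 for nucleotide synthesis and 0.17 for ATF4 targets. The median changes with the drug in guide 1 cells were then -0.01 and -0.12, against 0.10 and -0.01 with all 12 libraries. With mitochondrial genes kept 0 genes of either list were called. Without that replicate 20 were positive and 2 negative for nucleotide synthesis, and 24 and 1 for ATF4 targets.

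**Figure D3:**
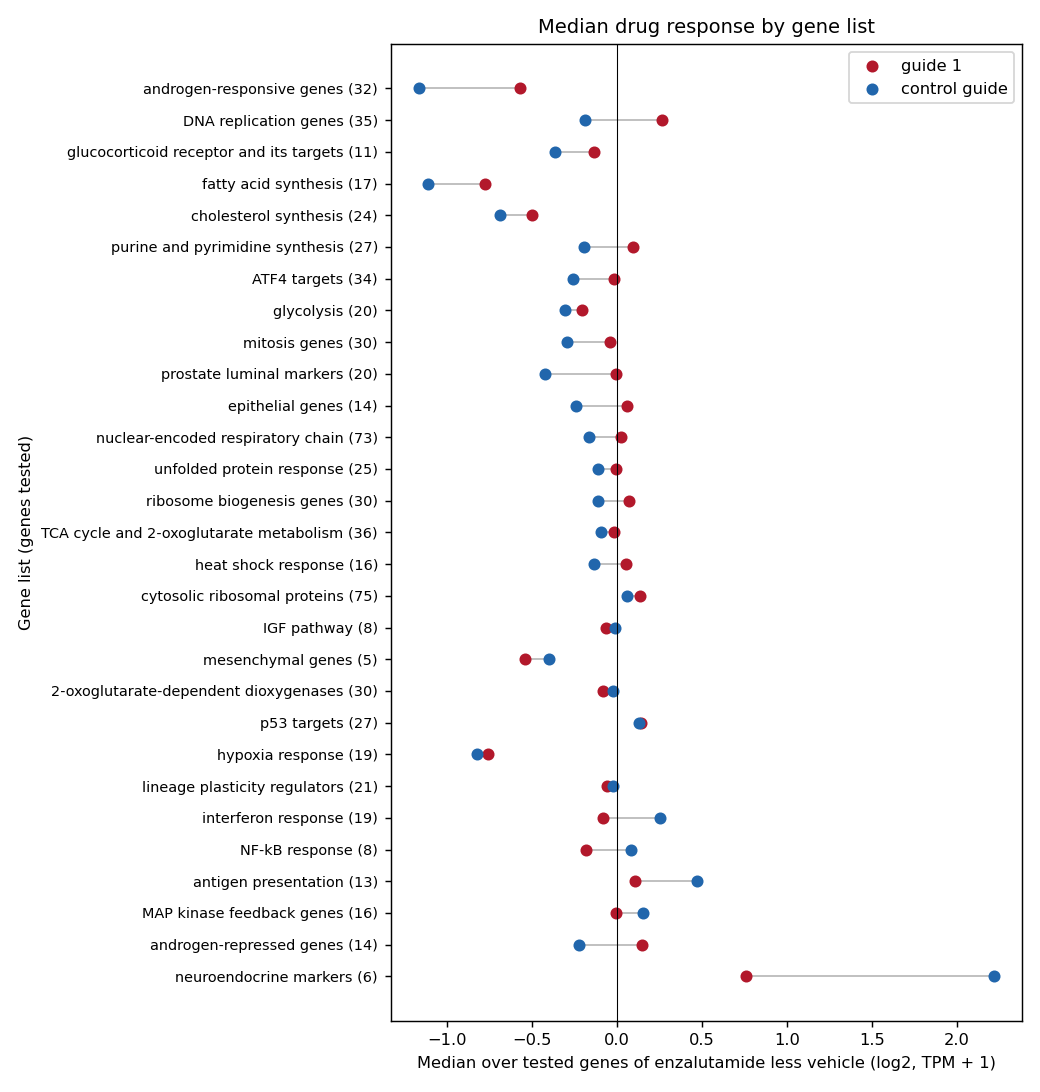
Median change with enzalutamide on log2(TPM + 1) in guide 1 cells (red) and in control cells (blue) for each gene list with at least 3 tested genes, ordered by the median interaction; numbers tested are in parentheses. Androgen-responsive genes lie at -0.57 in guide 1 cells and -1.16 in control cells, and DNA replication genes lie on opposite sides of 0.

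Lipid synthesis genes fell with the drug in both lines. For cholesterol synthesis 2 of 24 rose and 17 fell in guide 1 cells, against 1 that rose and 21 that fell in control cells, with 9 positive and 1 negative interactions (median 0.32). The sterol isomerase gene EBP had an interaction of 0.64 ± 0.087. For fatty acid synthesis 15 of 17 fell in both lines, with 7 positive and 2 negative interactions. ME1, the cytosolic malic enzyme gene, was blunted (0.52 ± 0.082), and ELOVL6, an elongase gene, fell further in guide 1 cells (-0.67 ± 0.097). The median of the second list was 0.33, and with guide 1 vehicle replicate 3 alone each median was 0.12. With mitochondrial genes kept 0 cholesterol synthesis genes and 2 fatty acid synthesis genes were called. Without guide 1 vehicle replicate 3 the positive and negative counts were 17 and 2 for cholesterol synthesis and 12 and 2 for fatty acid synthesis.

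Of 36 genes of the TCA cycle and 2-oxoglutarate metabolism, 3 were positive and 3 negative (median 0.06), beside 9.31% and 13.9% over all genes. OGDHL itself was among the negative ones and the aspartate aminotransferase gene GOT1 among the positive (0.59 ± 0.11). Without guide 1 vehicle replicate 3 of the 36 genes 15 were positive and 9 negative. Of 30 tested dioxygenases that use 2-oxoglutarate, 1 was positive and 8 negative (median -0.04), beside the same shares over all genes. Without that replicate 5 were positive and 10 negative. The histone H3K27 demethylase genes KDM6A (-0.62 ± 0.084) and KDM6B (-0.70 ± 0.077) and the H3K4 demethylase gene KDM5B (-0.62 ± 0.059) rose with the drug in control cells, and in guide 1 cells KDM6A did not pass and the other two fell. Keeping mitochondrial genes left 0 called in either list. AADAT, an aminotransferase that takes 2-oxoglutarate as its amino acceptor, was chosen after its values were seen: it had 64.6, 62.9 and 66.5 TPM in guide 1 cells in enzalutamide and 20.8, 20.2 and 18.3 TPM in vehicle, against 9.41, 9.44 and 9.57 TPM in control cells in enzalutamide and 16.2, 17.1 and 16.7 TPM in vehicle. It was reversed (2.42 ± 0.067, limma adjusted p = 1.8e-08). ARG2, the mitochondrial arginase gene, chosen in the same way, was gained, with 56.0 ± 1.71 TPM in guide 1 cells in enzalutamide and 24.3 to 26.7 TPM in every library of the other 3 groups (1.05 ± 0.054).

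Nuclear-encoded respiratory chain genes had 11 positive and 1 negative interactions of 73 (median 0.18), beside 9.31% positive and 13.9% negative over all genes, 23.2% in all. The largest positive one was that of the complex I gene NDUFB4 (0.72 ± 0.068). Their median level was -0.21 and -0.20 in guide 1 vehicle replicates 1 and 2, the libraries of highest mitochondrial share, and -0.02 in replicate 3, and the median interaction was 0.08 with replicate 3 alone. Without replicate 3 of that group 44 were positive and 4 negative, and with mitochondrial genes kept 0 and 0. Cytosolic ribosomal protein genes had 1 positive and 10 negative of 75, 6 and 4 with median-of-ratios scaling, and 28 and 22 without guide 1 vehicle replicate 3, so no direction is given for them. Hypoxia response genes fell in both lines (17 of 19 in guide 1 cells and 14 of 19 in control cells) with 0 positive and 3 negative interactions, against 2 and 5 without that replicate.

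**Figure D4:**
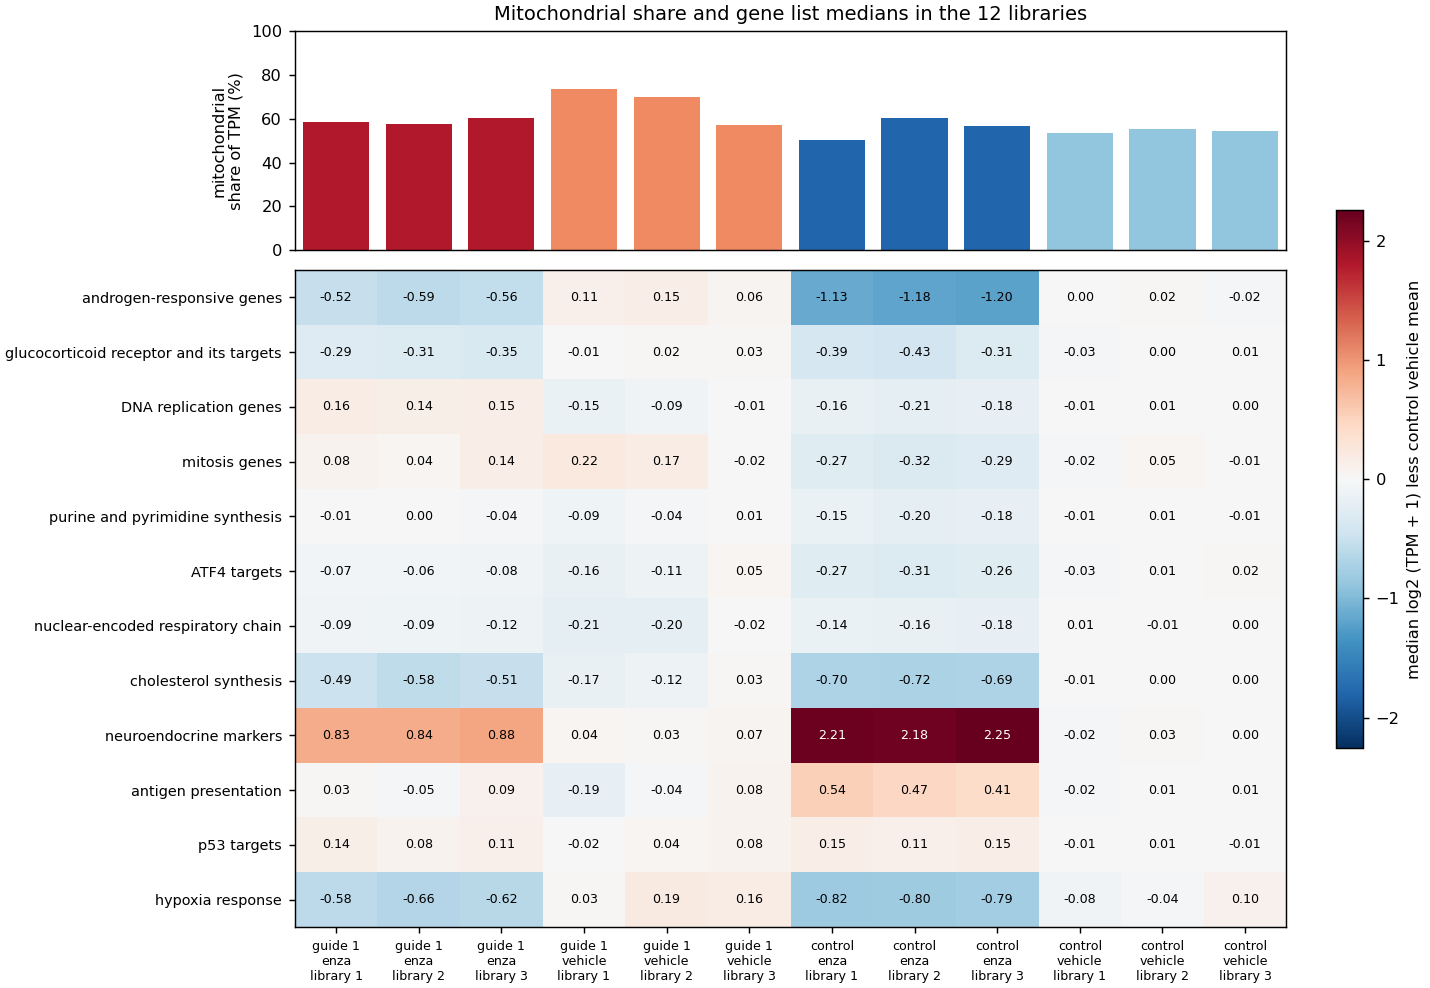
Share of TPM from mitochondrially encoded genes (bars, percent) and the median log2(TPM + 1) of 12 gene lists less the control vehicle mean (coloured cells with values) in each of the 12 libraries. The share is highest in guide 1 vehicle libraries 1 and 2, where the respiratory chain and DNA replication medians are below those of library 3.

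Some of the strongest drug responses had no called difference between the lines. DUSP4, a MAP kinase phosphatase gene, changed by -4.56 ± 0.069 in guide 1 cells and -4.80 ± 0.069 in control cells (interaction 0.25 ± 0.097, limma adjusted p = 0.097). The adrenergic receptor gene ADRA2A changed by 5.59 ± 0.083 in guide 1 cells and 5.83 ± 0.083 in control cells (interaction -0.23 ± 0.12, adjusted p = 0.18). These tests do not show that the responses were equal. Across genes Pearson's r between the 2 responses, which share no library, was 0.667, although genes are not independent replicates.

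The 4 gained rising genes with the largest interactions were the pseudogenes RPS9P1, ATP5MGP3, GAPDHP44 and SDHCP3, whose reads cannot be told from their parent genes. They were low in guide 1 vehicle replicates 1 and 2 or in all 3, and with replicate 3 alone GAPDHP44 was called (0.62) and the others were not. Each of the 4 also lost its call when any of several single libraries was left out. Among enhanced rises NEFL, which encodes a neurofilament chain, averaged 11.5 ± 0.603 TPM in guide 1 cells in enzalutamide and 2.19 ± 0.242 TPM in vehicle, against 3.76 ± 0.267 and 1.80 ± 0.138 TPM in control cells in enzalutamide and in vehicle (1.20 ± 0.097, limma adjusted p = 2.7e-05). The epithelial cadherin gene CDH1 was lower with the drug in guide 1 cells alone (-0.39 ± 0.036, against an adjusted p of 0.93 in control cells), and its interaction turned positive with mitochondrial genes kept.

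Unfolded protein response genes had 8 positive and 1 negative of 25, ribosome biogenesis 5 and 2 of 30, prostate luminal markers 8 and 5 of 20, glycolysis 2 and 2 of 20, epithelial genes 2 and 2 of 14, the IGF pathway 2 and 2 of 8, NF-kB response 1 and 2 of 8, mesenchymal genes 1 and 1 of 5 and heat shock 1 and 0 of 16, beside the 23.2% called over all genes. Without guide 1 vehicle replicate 3 ribosome biogenesis had 13 and 6, glycolysis 12 and 2, epithelial genes 7 and 3 and heat shock 3 and 1. With mitochondrial genes kept the luminal markers had 6 and 0, the IGF pathway 0 and 2, and the other lists at most 1 call each. Fewer than 3 genes were tested for prostate basal, fibroblast, endothelial and leukocyte markers.

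For several of these genes the second OGDHL guide gave levels in the drug nearer to control cells than to guide 1 cells. In enzalutamide KLK3 had 2575, 2487 and 2368 TPM with guide 1, 321, 338 and 315 TPM with guide 2 and 164, 168 and 157 TPM with the control guide. TMEFF2 had at most 0.0295 TPM with guide 2, PHLDA1 1.61, 1.57 and 1.55 TPM, ADAMTS1 6.85, 7.68 and 6.73 TPM, MAGEA1 7.21, 7.08 and 7.16 TPM and IGFBP3 612, 614 and 627 TPM. In a fit of all 18 libraries guide 1 less guide 2 in enzalutamide was 2.93 for KLK3, 2.94 for SLC45A3, 3.80 for TMEFF2, 3.85 for PHLDA1, 3.34 for MAGEA1, -2.42 for IGFBP3 and -2.80 for NTS (log2, limma adjusted p at or under 7.8e-11 in each). SYT4 (-1.63) and ID2 (-0.86) differed too, with guide 2 between the others, and ADCYAP1 and IGFBP5 with guide 2 were closer to guide 1 (1.14, 0.741 and 0.918 TPM for ADCYAP1 and 5.09, 4.46 and 4.31 TPM for IGFBP5), as was ARG2 (47.8, 46.9 and 45.3 TPM). NTS was higher still with guide 2 (169.8, 161 and 160.0 TPM) than with the control guide.

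OGDHL was 5.20, 5.38 and 5.36 TPM in the guide 2 libraries in enzalutamide, between guide 1 and control cells. No interaction is given for guide 2, because its vehicle libraries had 7.66, 8.84 and 7.93 TPM of OGDHL, above the control vehicle libraries. Their label names a guide against OGDHL, and whether the gene was cut in them was not tested. Both guides share the control libraries, so their differences from control are not set against each other. What differed between the guides is therefore given as levels in the drug alone.

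**Figure D5:**
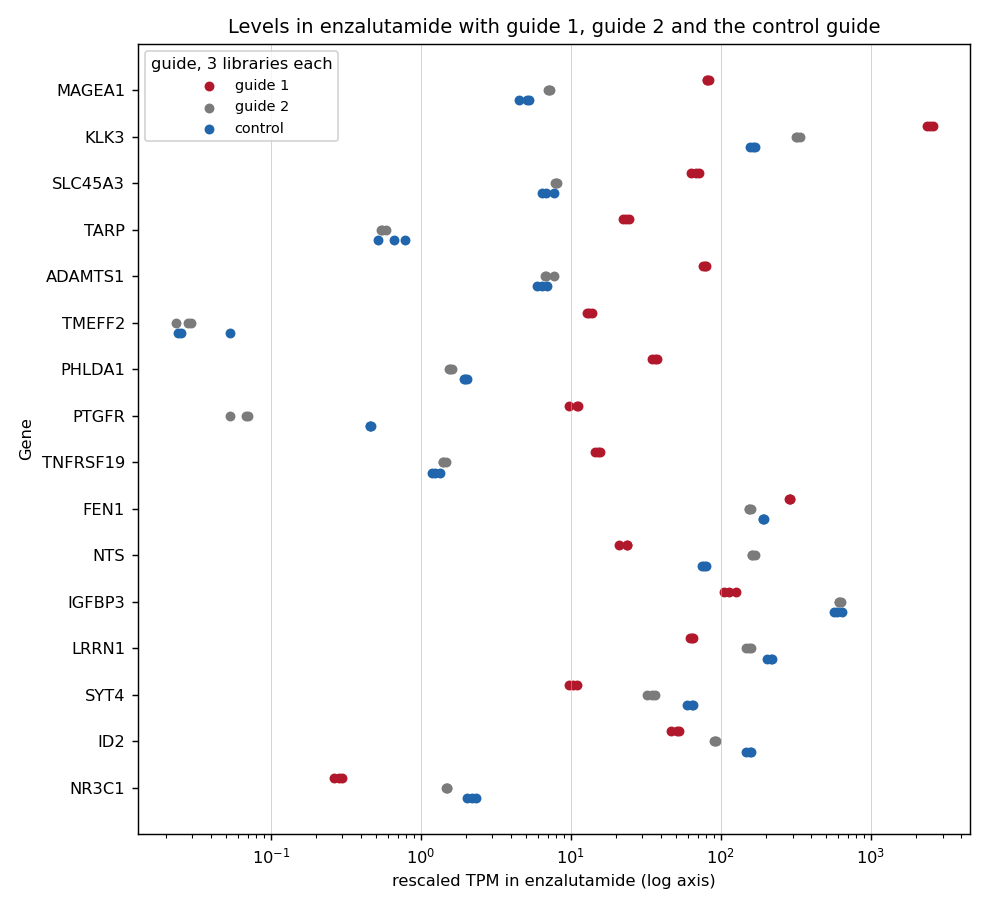
Rescaled TPM in enzalutamide (log axis) of 16 genes with guide 1 (red), guide 2 (grey) and the control guide (blue), 1 point per library. For KLK3, SLC45A3, TARP, ADAMTS1, TMEFF2, PHLDA1 and MAGEA1 the guide 2 points lie nearer to the control points than to those of guide 1.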

How the data were processed

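16D cells were lysed after 6 weeks and stranded mRNA libraries were sequenced as 2x50 paired ends, per the labels' protocols. The submitters' processing notes name STAR, with no version, and GRCh38. How genes were counted, with which annotation and strand setting, is not given in the sources used here. Values deposited by the authors are TPM for 37347 rows, in which depth is lost, so no counting interval can be given. Unnamed genes (10345 rows, 4.24% to 8.47% of TPM), 37 mitochondrial rows and 69 rows of 3 symbols with more than 4 rows were dropped, 32 repeated symbols were summed, and each column was rescaled to the same total.

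limma 3.58.1 (R 4.3.3) was fitted to log2(TPM + 1) in the 12 libraries with a mean per group (8 residual degrees of freedom) and a trended prior. The genes, 33 lists (782 genes, 777 in the table) and tests were chosen with earlier results of these data known. The genes named were fixed genes, up to 4 called genes of largest interaction per class and direction (at least 5 TPM in 1 group, same sign with each library left out), up to 4 called members per list and the 5 largest control responses each way; ABCC4, MAF, TRPM8, NDRG1, STEAP4, ST7, UGT2B15, ID1, ID3, CDKN1A, MDM2, CTPS1, NME1, MKI67, POLA1, POLA2, POLE and MCM6 fall outside that rule and, like AADAT and ARG2, were chosen after their values were seen. Alternatives changed scaling, pseudocount (0.1, 5), filter, weights, samples and the replicate block. Promoters and coordinates came from RefSeq GRCh38.p14. The fit was tested on simulated data. Python 3.11.15, numpy 2.4.6, pandas 2.3.3 and matplotlib 3.10.9 made tables and figures. Some genes taken by the rule are not reported here.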

Additional observations from a re-analysis of the deposited data

Results flagged for a closer look

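The drug response differed between guide 1 and control cells, by the interaction test of limma, at 3548 genes. Among the genes chosen for description the interaction (log2) was positive for MAGEA1 (4.63), LINC00161 (4.48), KLK3 (3.76), TMEFF2 (3.62), SLC45A3 (3.34), KLK2 (1.37), TMPRSS2 (0.89) and FKBP5 (0.58). It was negative for SYT4 (-2.82), IGFBP3 (-2.48), TCEAL9 (-2.22), ANKRD65 (-2.03), NTS (-1.76), NR3C1 (-1.32) and OGDHL (-0.60), of which NR3C1 passed the filter on low values through the control enzalutamide libraries alone. In guide 1 cells the fall of MAGEA1, LINC00161, KLK3 and TMEFF2 seen in control cells was a rise, and the rise of SYT4, TCEAL9 and ANKRD65 was a fall.

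Mitochondrially encoded genes, which the comparisons leave out, held a mean of 67.0% of TPM in guide 1 cells in vehicle, above the 53.6% to 55.4% of control cells in vehicle. Replicates 1 and 2 had this excess and replicate 3 lay near the other groups, and its part in the interactions was not tested beyond the values given with replicate 3 alone.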

How the results depend on the processing

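Counts of called genes that moved by over 1.5 times are given as higher and lower where both are listed. With mitochondrial genes kept the interaction had 296 calls (201 and 95), the control response 1813 (818 and 995), the guide 1 response 1948 (1646 and 302), guide 1 in vehicle 4535 (25 and 4510) and guide 1 in enzalutamide 535 (177 and 358); 286 of the 3548 interaction calls, of which 2901 were tested, were shared. With array weights, where guide 1 vehicle replicate 2 took a weight of 9.17, the counts were 9163, 9758, 11156, 11222 and 7273 in that order. The 644 calls of guide 1 in vehicle became 100 (63 and 37) after quantile normalization, 196 (116 and 80) after median-of-ratios scaling, 305 with a filter at 5, 6227 with all 18 libraries, 25 with the replicate block and 6 with guide 1 vehicle replicate 3 alone, which gave 7232 for guide 1 in enzalutamide. The control response split as 3283 and 3816 with median-of-ratios scaling. Other counts stayed within 1.5 times, and of the 3548 calls 3164 were shared with median-of-ratios scaling, 2744 with replicate 3 alone and 3533 without it. The causes were not tested.

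Leaving out 1 library gave 2447 to 7480 interaction calls, 5785 to 8601 for the control response, 4585 to 9247 for the guide 1 response, 3077 to 6214 for guide 1 in enzalutamide and 13 to 9088 for guide 1 in vehicle, each highest without guide 1 vehicle replicate 3. Among the genes chosen for description, interactions reversed with mitochondrial genes kept at HK1 (0.0084), RPL14 (0.028), RPL11 (0.057), RPL15 (0.091), CDH1 (0.018), UGT2B28 (0.23) and UGT2B10 (0.26), and with replicate 3 alone at PPP1R12C (-0.18). Keeping mitochondrial genes ended the calls of 85 of 136 named genes, OGDHL, FN1, E2F1 and FEN1 among them, beside a median shift of 0.30.

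The main fit did not pair libraries by replicate number. Between guide 1 and control cells, deviations of same-number libraries correlated at 0.049 to 0.118 in enzalutamide, 1 of 3 over 0.1, and at 0.057 to 0.093 in vehicle. In each treatment all 3 correlated best with their own number. Between vehicle and enzalutamide, same-number libraries correlated at -0.046 to 0.021 in control cells and at -0.287 to -0.107 in guide 1 cells. The replicate block gave 2777 interaction calls (1099 and 1678), of which 2743 were among the 3548. Depth is unknown, so it could not be weighed.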
